A study of Mus musculus with 9 samples.

Results

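Autophagy and mitophagy genes were followed in the myocardium of mice with streptozotocin-induced diabetes, with and without spermine. The 39 genes were taken as a list of symbols that covers the steps from induction to the lysosome. The list is not set by a measured value, but it was drawn up with earlier results of these data known. Of these, 37 were found by Ensembl identifier among the 22851 genes of the count table, and Atg2a and Map1lc3b were not analysed here. RNA-seq had been run on 9 heart libraries from male C57BL/6 mice (C57BL/6J in the methods of the study), 3 for each of 3 groups. The control check group (CK) had received citrate buffer. The diabetic cardiomyopathy model group (DCM) had received a single injection of streptozotocin (STZ) at 180 mg/kg, a toxin of pancreatic beta cells, and was studied 12 weeks later. The spermine group (SPM) had received STZ as well, with daily spermine (1 mg/kg) during the 2 weeks before the injection and spermine on alternate days during the 12 weeks that followed. No mice received spermine without STZ, so no comparison shows spermine in the absence of STZ. SPM and CK differ in both STZ and spermine, whose parts cannot be told apart there. Spermine began before STZ, so SPM compared to DCM cannot separate its use before the injection from its use afterwards. The animals were wild type, and no gene was targeted. The methods give 3 mice per group in one place and 18 hearts mixed in pools of 6 in another. It is therefore not settled whether libraries stand for single mice or for pools, and p-values measure the spread between these libraries.

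Macroautophagy encloses cytoplasm in a double membrane and delivers it to the lysosome. The ULK1 kinase complex starts the process, the class III PI3-kinase complex makes the lipid PI3P on the forming membrane, and 2 ubiquitin-like conjugation systems attach ATG8 proteins (the LC3 and GABARAP families) to it. Cargo receptors such as p62 (Sqstm1) bind ubiquitin on one side and ATG8 proteins on the other. Mitophagy is the same route applied to mitochondria, through the PINK1 kinase or through receptors of the outer mitochondrial membrane such as BNIP3, NIX (Bnip3l) and FUNDC1. In the heart, whose muscle cells do not divide and are rich in mitochondria, this turnover is known to protect against loss of function with stress and age. Polyamines such as spermine and spermidine are known inducers of autophagy. Transcript levels do not measure the flow of cargo through the pathway.

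The 9 libraries held between 29901300 and 39718680 counts. The 37 genes together made up 0.457% to 0.478% of each CK library, 0.475% to 0.507% of each DCM library and 0.408% to 0.424% of each SPM library, with no overlap between SPM and either of the other groups. Mitochondrially encoded genes took 13.7% to 16.2%, 15.5% to 18.9% and 21.0% to 21.1%, in the same order, and their part in the lower share of the autophagy genes in SPM was not tested. Among 14362 genes with at least 100 counts, SPM replicate 2 lay between SPM replicates 1 and 3 for 66.6%, whereas any other library lay between its pair for 15.6% to 40.0%. For the autophagy genes this held for 26 of the 37. The independence of SPM replicate 2 is in doubt for that reason, and the calls of the 37 genes in SPM are given with and without it. Other results of SPM are given without it only in part. The tissue label names heart, whereas the extraction protocol of all libraries speaks of retinas. All 8 measured cardiomyocyte markers had at least 1 CPM (counts per library after scaling all totals to the same size) throughout, with a summed level of 41170 to 56980 CPM, and the 7 measured retina markers summed to at most 1.75 CPM.

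The genes spanned a wide range of levels. By the deposited FPKM, which corrects for transcript length, Map1lc3a (LC3A) was the highest of the 37 at 436.5 FPKM averaged over the 9 libraries. Pink1, the kinase that marks damaged mitochondria, followed at 368.7 FPKM, Sqstm1 at 315.7 FPKM and Gabarap at 173.7 FPKM. Gabarapl1 had 96.5 FPKM, the lysosomal membrane proteins Lamp1 and Lamp2 had 71.7 and 55.4 FPKM, and Bnip3 had 48.2 FPKM. The induction kinases Ulk1 and Ulk2 had 28.4 and 14.5 FPKM, and the beclin gene Becn1 had 2.27 FPKM. Atg4a, one of the proteases that process ATG8 proteins, was the lowest with a mean of 0.166 FPKM, below its relatives Atg4b (8.56 FPKM), Atg4d (8.76 FPKM) and Atg4c (1.58 FPKM). The plot of FPKM by library shows that differences between groups were small next to the distance between the highest and the lowest gene. In normalised CPM (CPM with library totals scaled by TMM factors over the 9 libraries) the median of the 37 was 52.0, against 13.9 for the 14849 genes tested in any comparison. The typical standard error of a log2 fold change was correspondingly smaller for these genes, at a median of 0.08 against 0.12 for all genes in DCM compared to CK.

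**Figure D1:**
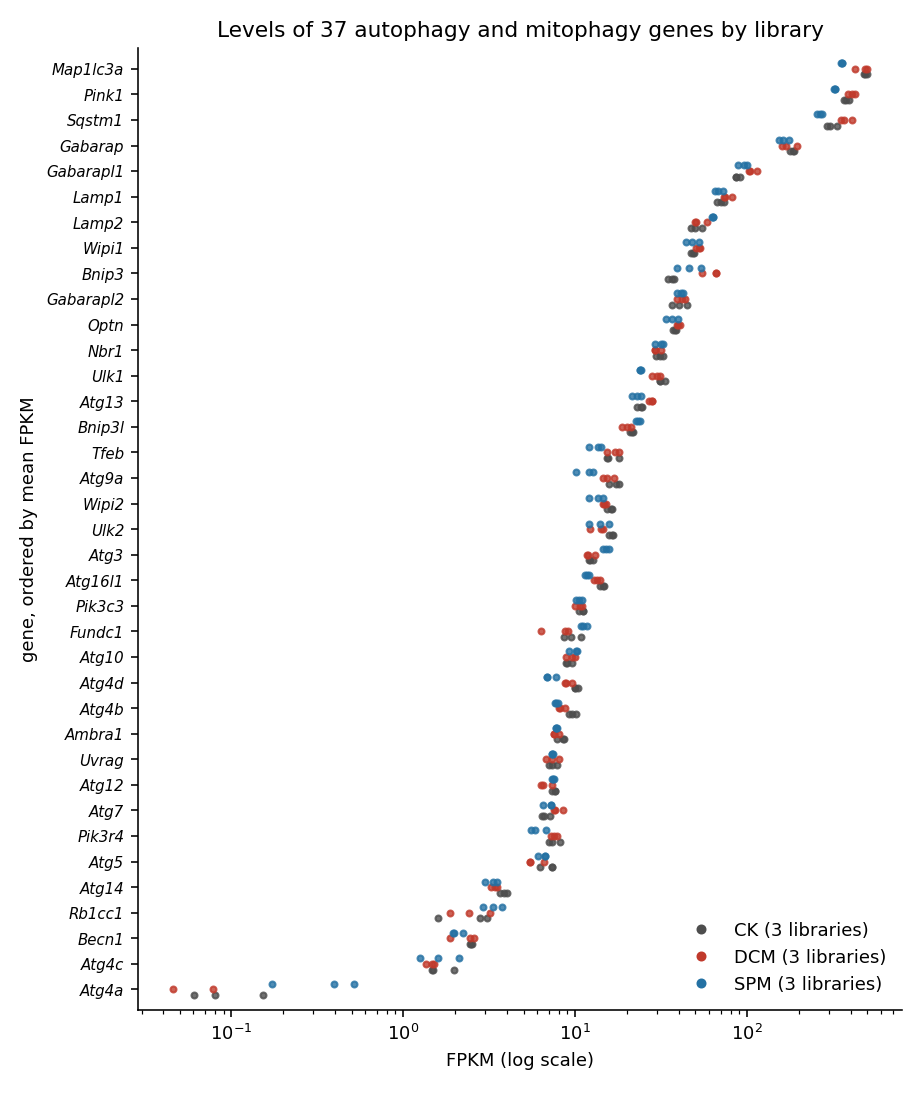
FPKM (x axis, log scale) of 37 autophagy and mitophagy genes in the 9 libraries, 1 point per library and 3 libraries per group, with genes ordered by their mean. Map1lc3a (mean 436.5 FPKM), Pink1 and Sqstm1 lie at the top and Atg4a (mean 0.166 FPKM) at the bottom; the DCM library without a count of Atg4a has no point on the log axis.

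In DCM compared to CK, 5 of the 36 genes tested were upregulated and 0 were downregulated (edgeR's quasi-likelihood test, Benjamini-Hochberg adjusted p below 0.05 over 14402 genes). Over all genes 5.28% were called higher and 5.11% lower. The 5 were Bnip3, Gabarapl1, Sqstm1, Atg7 and Atg13. At an unadjusted p below 0.05, 9 of the genes were higher and 0 lower, and DESeq2 called 7 higher and 0 lower. With the limit of 1.5-fold on top, only Bnip3 was a differentially expressed gene (DEG), against 4.34% DEGs over all genes. The libraries of both groups did not overlap for 10 of the 36, against 29.3% of all genes. The median log2 fold change was 0.04, with 0.00 for all genes, and the median absolute log2 fold change was 0.09, with 0.17 for all genes. The median standard error was smaller as well, at 0.08 against 0.12. The smaller absolute values therefore do not show that these genes were more stable than others. Atg4a was too low in these 6 libraries to be tested. Leaving out CK replicate 2 or DCM replicate 2 left 2 of the 5 calls, and leaving out CK replicate 3 left 3. Over all genes 10.4% were called with every library, and 5.59%, 5.81% and 8.63% in these 3 fits.

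Between DCM and SPM, 15 of the 37 genes changed at an adjusted p below 0.05, 5 upward and 10 downward. Over all 14493 genes 8.87% were called higher and 7.76% lower. The genes that rose were Atg4a, Fundc1, Atg3, Lamp2 and Bnip3l, and those that fell were Sqstm1, Bnip3, Atg9a, Map1lc3a, Atg4d, Tfeb, Pink1, Pik3r4, Ulk1 and Atg13. Only Atg4a was a DEG, against 3.59% of all genes, so the other 14 differences were smaller than 1.5-fold. The libraries did not overlap for 17 of the 37, against 39.2% of all genes. The same test without SPM replicate 2 called 0 of the 37, as it called 0.486% of all genes, and 6 were higher and 10 lower at an unadjusted p below 0.05. The log2 fold changes of the 14 called genes other than Atg4a moved by at most 0.03 and all 14 kept their sign, while their standard errors grew 1.16 to 1.48 times and their adjusted p lay between 0.0566 and 0.181. Leaving out DCM replicate 2 left 1 call (1.29% of all genes) and leaving out DCM replicate 1 left 6 (5 of them among the 15, with 5.04% of all genes), whereas 11 and 12 genes were called without SPM replicate 1 (12.6% of all genes) and without SPM replicate 3 (16.3%).

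Against CK, 7 of the 37 genes rose in SPM and 6 fell, with 13.0% of all 14574 genes called higher and 14.3% lower. Those that rose were Atg4a, Bnip3, Lamp2, Atg3, Fundc1, Bnip3l and Gabarapl1, and those that fell were Atg9a, Atg4d, Map1lc3a, Ulk1, Atg4b and Atg16l1. Atg4a was the single DEG, against 9.21% of all genes. Libraries did not overlap for 18 of the 37, against 46.3% of all genes. Without SPM replicate 2, 6 of the 13 calls were left (10.4% of all genes were then called), and these were Ulk1, Atg3, Atg4d, Atg9a, Map1lc3a and Lamp2. The same 6 passed whichever of the 6 libraries was left out, but only Atg4d and Atg9a of them also passed when GC content was corrected for, as described with base composition. Every pair of the 3 comparisons shares the libraries of 1 group, so that their fold changes are not independent of each other. The plot of fold changes by role shows the 3 comparisons side by side.

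**Figure D2:**
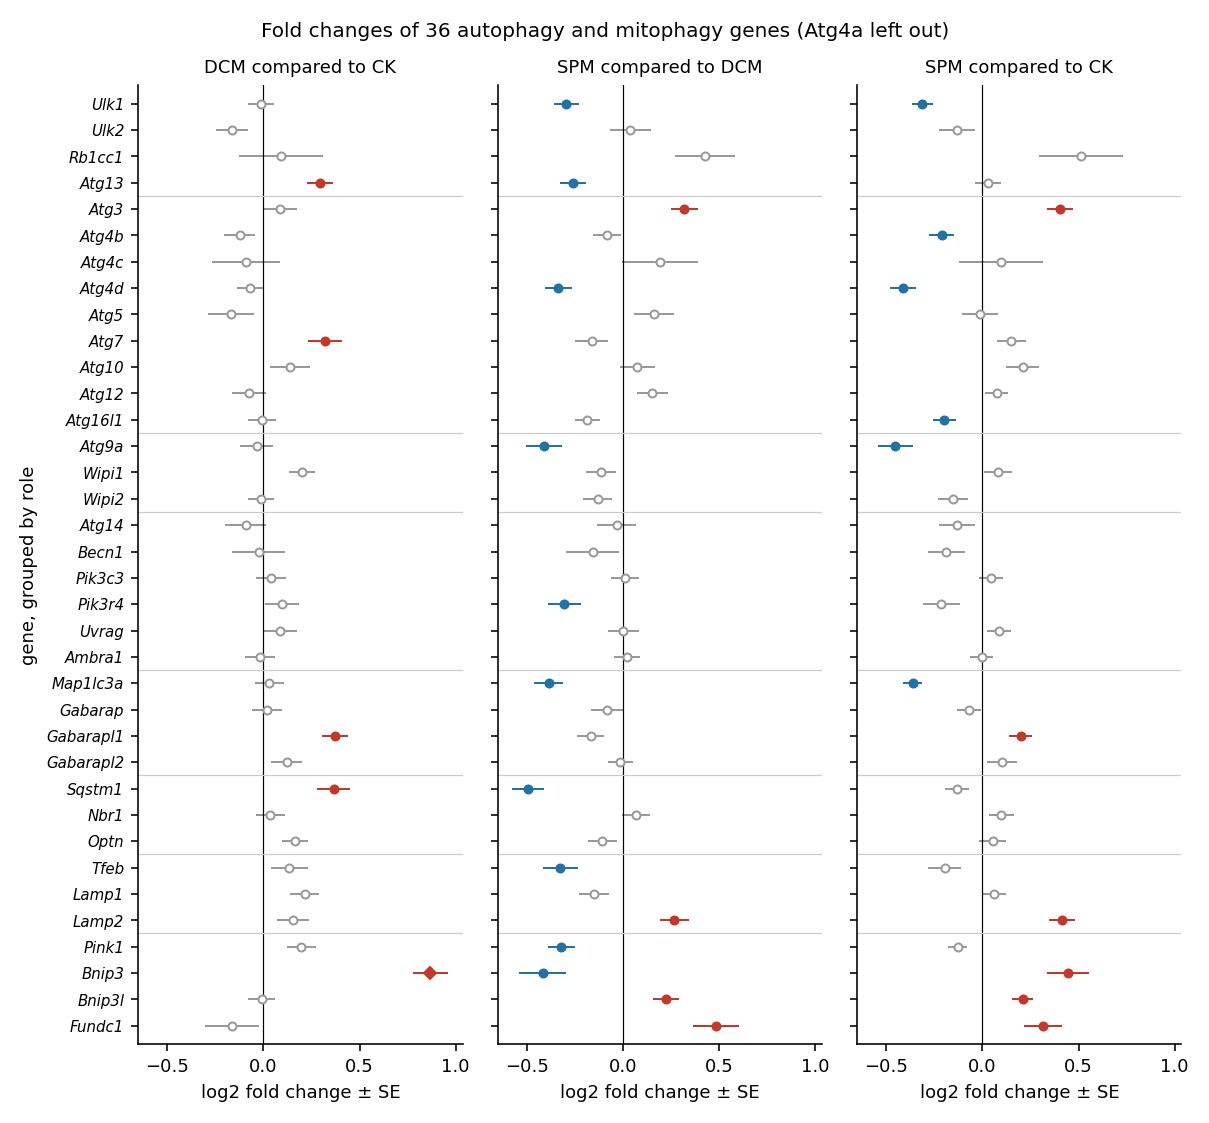
Log2 fold change with its standard error (x axis) for 36 genes grouped by role (y axis), in DCM compared to CK, SPM compared to DCM and SPM compared to CK, each from 6 libraries; Atg4a is left out because its fold change lies far outside the axis. Filled points have an adjusted p below 0.05 (red higher, blue lower), open points do not, and the diamond marks Bnip3, a DEG in DCM compared to CK at a log2 fold change of 0.87.

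Bnip3 had the largest rise of the list in DCM. Its product sits in the outer mitochondrial membrane, binds ATG8 proteins and is known as a target of the hypoxia-inducible factors and of FoxO3 in muscle. Bnip3 (ENSMUSG00000078566, chr7:138890836-138909519 on the minus strand of GRCm38 in the GENCODE annotation) had 57.9, 62.8 and 62.2 normalised CPM in CK, 95.8, 119.9 and 118 in DCM, and 97.4, 81.9 and 70.4 in SPM. Every DCM library was above every CK library, and the SPM libraries lay above CK but 1 of them reached into the range of DCM. In DCM compared to CK the log2 fold change was 0.87 ± 0.09 (SE), a fold of 1.82, with an adjusted p of 1.1e-04 that stayed between 1.4e-18 and 0.00137 under all 14 alternatives. Bnip3 fell in SPM compared to DCM by 0.42 on the log2 scale (SE 0.12, adjusted p = 0.0413) and in SPM compared to CK it was higher by 0.44 (SE 0.11, adjusted p = 0.0185). Both of these calls were lost without SPM replicate 2, at an adjusted p of 0.131 and 0.0572. The fall from DCM to SPM was also lost without any 1 of the 3 DCM libraries or SPM replicate 3, with adjusted p over the 14 alternatives between 0.00504 and 0.159, and the excess over CK without any 1 of the CK libraries.

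The promoter of Bnip3 is shown because it belongs to the only DEG of the list in DCM, and that of Atg4a because it is the only DEG in SPM. Each run gives the 250 bases before a start site of RefSeq on GRCm38.p6, read along the gene, and ends at the base before the start. Capitals mark CACGTG, the palindromic E-box that TFEB-type factors bind, and ACGTG, the core of the hypoxia response element, which CACGTG contains on both strands. Atg4a has 2 start sites in RefSeq. Lamp1, a classical TFEB target, was added after its matches had been seen, as the promoter of the list with the most E-boxes.
Bnip3 (minus strand, chr7:138909507-138909756): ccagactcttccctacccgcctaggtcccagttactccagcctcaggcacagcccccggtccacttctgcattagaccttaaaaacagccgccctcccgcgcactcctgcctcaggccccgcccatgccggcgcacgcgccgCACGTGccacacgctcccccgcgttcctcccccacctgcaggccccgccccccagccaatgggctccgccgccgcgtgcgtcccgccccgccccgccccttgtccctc
Atg4a, upstream start (plus strand, chrX:140953595-140953844): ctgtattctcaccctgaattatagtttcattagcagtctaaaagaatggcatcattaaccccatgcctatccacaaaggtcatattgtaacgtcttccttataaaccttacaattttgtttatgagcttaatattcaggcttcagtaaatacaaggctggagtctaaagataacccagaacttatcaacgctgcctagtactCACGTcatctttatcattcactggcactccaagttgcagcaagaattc
Atg4a, downstream start (plus strand, chrX:140956657-140956906): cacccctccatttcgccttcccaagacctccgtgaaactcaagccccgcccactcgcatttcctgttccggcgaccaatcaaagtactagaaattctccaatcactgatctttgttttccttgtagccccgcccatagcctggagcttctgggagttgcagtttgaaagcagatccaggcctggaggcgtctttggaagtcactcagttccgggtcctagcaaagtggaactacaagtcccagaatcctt
Lamp1 (plus strand, chr8:13158911-13159160): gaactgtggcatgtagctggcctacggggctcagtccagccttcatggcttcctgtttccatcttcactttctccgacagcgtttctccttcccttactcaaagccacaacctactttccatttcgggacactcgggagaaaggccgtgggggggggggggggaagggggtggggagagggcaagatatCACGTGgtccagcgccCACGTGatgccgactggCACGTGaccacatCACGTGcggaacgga

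A promoter was matched for 30 of the 37 genes. The Bnip3 window held 1 CACGTG, which began 108 bases before the start, and 72.4% of its bases were G or C. The upstream window of Atg4a held 1 ACGTG on the opposite strand, beginning 48 bases before the start, and the downstream window held neither motif. The Lamp1 window held 4 CACGTG, the most distal beginning 61 bases before the start. CACGTG was found in at least 1 window of 5 of the 30 genes (Atg3, Atg5, Atg7, Bnip3 and Lamp1), a share of 16.7%, against 6.86% of the 27025 genes with a RefSeq window. ACGTG was found for 12 of the 30, or 40.0%, against 18.5% of all genes. TGTTTAC, the sequence bound by forkhead factors such as FoxO3, was found for 0 of the 30 on either strand, against 3.54% of all genes. Of the 5 genes with CACGTG, Bnip3 and Atg7 rose in DCM and Atg3, Atg5 and Lamp1 did not pass the test there. The Atg7 window (plus strand, chr6:114670846-114671095) lies inside the gene as annotated by GENCODE, which starts at 114643097. A match is a string of letters and says nothing of binding.

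The other 3 mitophagy genes did not pass the test in DCM compared to CK and all passed it in SPM compared to DCM. Pink1 had 886, 818 and 868 normalised CPM in CK, 969, 1041 and 938 in DCM, and 779, 789.9 and 792 in SPM. The DCM libraries were above those of both other groups, and the SPM libraries lay close together below all others. In DCM compared to CK the log2 fold change was 0.20 ± 0.08 and did not pass the test (adjusted p = 0.124). Pink1 fell in SPM compared to DCM by 0.32 on the log2 scale (SE 0.07, adjusted p = 0.0190), and against CK the value of -0.13 missed the threshold (adjusted p = 0.0936).

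Bnip3l, whose product NIX clears mitochondria from maturing red cells and acts beside BNIP3 in heart muscle, had 66.5, 67.0 and 66.2 normalised CPM in CK, 65.4, 62.9 and 69.9 in DCM, and 79.3, 75.4 and 77.0 in SPM. The SPM libraries were above all others while CK and DCM overlapped. The log2 fold change was 0.23 ± 0.07 in SPM compared to DCM (adjusted p = 0.0442) and 0.21 ± 0.06 in SPM compared to CK (adjusted p = 0.0242). Fundc1, a receptor that responds to hypoxia, averaged 18.3 ± 2.28 (SD, n = 3) normalised CPM in CK, 16.3 ± 2.92 in DCM and 22.8 ± 0.930 in SPM. It rose by 0.49 ± 0.12 in SPM compared to DCM (adjusted p = 0.0263) and by 0.32 ± 0.10 in SPM compared to CK (adjusted p = 0.0436), again without overlap of libraries. None of these 3 genes passed the test in SPM compared to DCM once SPM replicate 2 was left out, at an adjusted p of 0.112 for Pink1, 0.158 for Bnip3l and 0.107 for Fundc1, and neither Bnip3l nor Fundc1 passed against CK, at 0.0974 and 0.168. Against DCM, Pink1 was also lost without DCM replicate 2, Fundc1 without DCM replicate 1 or 2, and Bnip3l without these or SPM replicate 1 or 3. Against CK, Bnip3l was also lost without CK replicate 2 or 3 or SPM replicate 1, and Fundc1 without CK replicate 1 or 2 or SPM replicate 1 or 3. Over the 14 alternatives, the adjusted p in SPM compared to DCM ranged from 5.1e-05 to 0.216 for Pink1, from 0.0306 to 0.826 for Bnip3l and from 0.00588 to 0.31 for Fundc1.

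The ATG8 family, whose lipid-bound members carry cargo receptors into the autophagosome, split between its members. Gabarapl1 had 158, 149 and 152 normalised CPM in CK, 208, 196 and 190.3 in DCM, and 165, 179 and 185 in SPM. The 3 groups did not overlap, with CK lowest, SPM between and DCM highest. Gabarapl1 rose in DCM compared to CK by 0.37 ± 0.07 on the log2 scale (fold 1.29, adjusted p = 0.00464), a call kept under all 14 alternatives with adjusted p from 8.3e-06 to 0.0341. For SPM compared to DCM the log2 fold change was -0.17 ± 0.07 (adjusted p = 0.121). Against CK the SPM libraries were higher by 0.20 ± 0.06 (adjusted p = 0.0427). That call was lost without SPM replicate 2 (adjusted p = 0.175), without SPM replicate 3 and without any 1 of the CK libraries, and ranged from 0.0103 to 0.224.

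Map1lc3a had 530.0, 511 and 514 normalised CPM in CK, 548, 557 and 482 in DCM, and 404, 405 and 406 in SPM. The SPM libraries were below all others, and CK lay within the range of DCM. Map1lc3a did not differ in DCM compared to CK beyond its error (0.03 ± 0.08, adjusted p = 0.862). It fell by 0.39 on the log2 scale in SPM compared to DCM (SE 0.07, adjusted p = 0.0137) and by 0.36 in SPM compared to CK (SE 0.05, adjusted p = 0.00187). Without SPM replicate 2 the adjusted p was 0.0780 against DCM and 0.0204 against CK, and the call against DCM was also lost without DCM replicate 2. With the correction for GC content the value against CK was -0.13 (adjusted p = 0.0858). Gabarap had 242, 236 and 233 normalised CPM in CK, 262, 236 and 221 in DCM, and 244, 224 and 212 in SPM. Gabarapl2 (GATE-16) had 71.8, 63.9 and 59.7, then 72.9, 67.7 and 71.7, and then 67.1, 70.6 and 72.5 normalised CPM in the same order. The groups overlapped for both genes, and their log2 fold changes lay between -0.08 and 0.12 with adjusted p of at least 0.357 in the 3 comparisons.

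Among the cargo receptors only Sqstm1 passed the test. Its product p62 links ubiquitinated cargo to ATG8 proteins, is itself degraded with the cargo, and is known as a target of NRF2. Sqstm1 had 851, 739 and 783 normalised CPM in CK, 969, 1128 and 956 in DCM, and 704, 724 and 745 in SPM. The DCM libraries were above all others, and SPM and CK overlapped. Sqstm1 rose in DCM compared to CK by 0.36 ± 0.09 (fold 1.29, adjusted p = 0.0194) and fell in SPM compared to DCM by 0.49 on the log2 scale (SE 0.08, fold 0.711, adjusted p = 0.0107). Against CK the SPM value was -0.13 ± 0.06 (adjusted p = 0.144). The rise in DCM was lost without CK replicate 2, CK replicate 3 or DCM replicate 2, with adjusted p over the 14 alternatives from 3.8e-04 to 0.0994. Of the alternatives, leaving out SPM replicate 2 was the single one that took away the fall from DCM to SPM, with a log2 fold change of -0.49 at an adjusted p of 0.0566, over a range that began at 1.1e-07. Nbr1 and Optn, which also bind ubiquitin and ATG8 proteins, had log2 fold changes between -0.11 and 0.17 in the 3 comparisons, none of which passed.

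**Figure D3:**
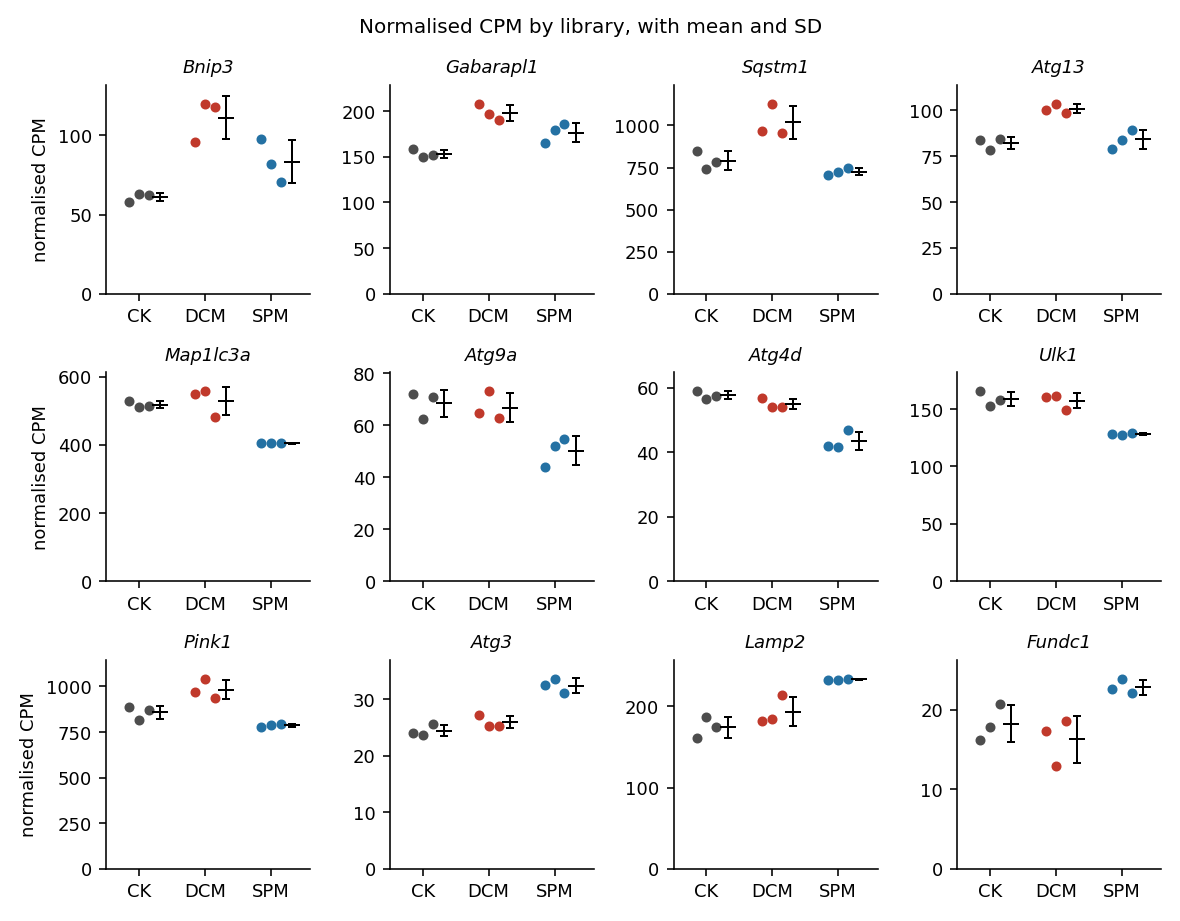
Normalised CPM (y axis, from 0) of 12 genes by library and group (x axis), with 3 points per group and the mean and SD beside them. The 3 DCM libraries lie above CK for Bnip3, Gabarapl1, Sqstm1, Atg13 and Pink1. The 3 SPM libraries lie below DCM for Gabarapl1, Sqstm1, Atg13, Map1lc3a, Atg9a, Atg4d, Ulk1 and Pink1 and above it for Atg3, Lamp2 and Fundc1.

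Of the 4 genes of the ULK complex, Atg13 rose in DCM and Ulk1 and Atg13 fell in SPM compared to DCM. Atg13 encodes the subunit through which mTORC1 and nutrient state act on the kinase. It had 84.0, 78.4 and 84.1 normalised CPM in CK, 99.99, 103 and 98.6 in DCM, and 79.0, 84.0 and 89.5 in SPM. The DCM libraries stood above both other groups, which overlapped. Atg13 rose by 0.29 ± 0.07 in DCM compared to CK (fold 1.23, adjusted p = 0.0163) and fell by 0.26 on the log2 scale in SPM compared to DCM (SE 0.07, adjusted p = 0.0319). The rise was lost without CK replicate 2 or DCM replicate 2, with a highest adjusted p of 0.0930 over the alternatives, and the fall was lost without SPM replicate 2 (adjusted p = 0.151), SPM replicate 1, DCM replicate 1 or DCM replicate 2.

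Ulk1, the kinase itself, had 165, 153 and 157 normalised CPM in CK, 161, 161 and 149 in DCM, and 128, 127 and 129 in SPM. CK and DCM overlapped, and the SPM libraries lay below both. Ulk1 fell by 0.29 on the log2 scale in SPM compared to DCM (SE 0.06, adjusted p = 0.0180) and by 0.31 in SPM compared to CK (SE 0.05, adjusted p = 0.00461). Without SPM replicate 2 the adjusted p was 0.110 and 0.0406, respectively, and the fall from DCM was also lost without DCM replicate 1 or 2. With the correction for GC content the value of Ulk1 against CK was -0.15 and did not pass (adjusted p = 0.0609). Its relative Ulk2 and the scaffold gene Rb1cc1 (FIP200) did not pass any test, with Rb1cc1 at 0.43 ± 0.16 in SPM compared to DCM (adjusted p = 0.0847) and at 0.51 ± 0.22 in SPM compared to CK (adjusted p = 0.108).

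The class III PI3-kinase genes, which make PI3P, were nearly flat. None of Becn1, Pik3c3 (VPS34), Pik3r4 (VPS15), Atg14, Uvrag and Ambra1 passed the test in DCM compared to CK, where their log2 fold changes lay between -0.09 and 0.10, or in SPM compared to CK. Pik3r4, the regulatory subunit, fell in SPM compared to DCM by 0.30 on the log2 scale (SE 0.09, adjusted p = 0.0407), from 37.7 ± 2.15 (SD, n = 3) to 30.6 ± 3.16 normalised CPM. This call was lost without any 1 of the libraries other than SPM replicate 3, with adjusted p between 0.0128 and 0.181 over the alternatives and of 0.181 without SPM replicate 2. Of the genes for membrane supply and PI3P effectors, Atg9a, the lipid scramblase on the vesicles that seed the membrane, fell in SPM. It had 72.2, 62.6 and 70.8 normalised CPM in CK, 64.6, 73.1 and 62.7 in DCM, and 44.0, 51.9 and 54.8 in SPM. Every SPM library was below the other 6. The log2 fold change of Atg9a was -0.41 ± 0.09 in SPM compared to DCM (adjusted p = 0.0213) and -0.45 ± 0.09 in SPM compared to CK (adjusted p = 0.00957). The latter was kept under all 14 alternatives, with adjusted p up to 0.0382, and the former was lost without SPM replicate 2 (adjusted p = 0.0765), DCM replicate 1 or DCM replicate 2. Wipi1 and Wipi2, which bind PI3P, did not pass in any comparison, although the 3 DCM libraries of Wipi1 were above those of CK (0.20 ± 0.07, adjusted p = 0.0834) and DESeq2 called it (adjusted p = 0.0394).

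In the conjugation systems, Atg7 rose in DCM and Atg3 rose in SPM. ATG7 is the E1-like enzyme of both systems. Atg7 had 26.5, 24.3 and 24.2 normalised CPM in CK, 29.0, 34.0 and 30.6 in DCM, and 28.8, 28.9 and 25.8 in SPM. The DCM libraries were above both other groups, by a narrow margin over SPM. The log2 fold change was 0.32 ± 0.09 in DCM compared to CK (fold 1.25, adjusted p = 0.0402), and the call was lost without CK replicate 2, CK replicate 3, DCM replicate 2 or DCM replicate 3, with a highest adjusted p of 0.145. ATG3 is the E2-like enzyme that hands ATG8 proteins to the lipid. Atg3 had 24.0, 23.6 and 25.5 normalised CPM in CK, 27.2, 25.3 and 25.2 in DCM, and 32.5, 33.5 and 31.0 in SPM. The SPM libraries lay above all others. Atg3 rose by 0.32 ± 0.07 in SPM compared to DCM (adjusted p = 0.0201, and 0.125 without SPM replicate 2) and by 0.40 ± 0.07 in SPM compared to CK (adjusted p = 0.00430, and 0.0368 without it). The former call was also lost without DCM replicate 2, and the latter was lost with the correction for GC content (0.11, adjusted p = 0.375). Atg5, Atg10 and Atg12 did not pass in any comparison, and Atg16l1, which places the conjugation site on the membrane, passed against CK at -0.20 ± 0.06 (adjusted p = 0.0392, and 0.176 without SPM replicate 2), a call lost without any 1 library other than CK replicate 2.

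The ATG4 proteases, which prime ATG8 proteins and free them from the membrane again, gave the largest difference of the list, and it rested on few counts. Atg4a (ENSMUSG00000079418, chrX:140956907-141164270 on the plus strand) had 20 counts in the 3 CK libraries together, 10 in DCM and 77 in SPM. In normalised CPM the values were 0.127, 0.167 and 0.324 in CK, 0.1005, 0 and 0.176 in DCM, and 0.893, 1.16 and 0.390 in SPM. No count was seen in DCM replicate 2, which allows a level of up to 0.0982 CPM, and the SPM libraries were above the other 6. The ratio of summed counts per summed library totals, without TMM factors, was 8.37 (95% interval 4.32 to 18.2, counting error only) for SPM to DCM. For SPM to CK it was 3.73 (2.26 to 6.45). The fitted log2 fold changes were 3.04 ± 0.71 (adjusted p = 0.0227) and 1.96 ± 0.55 (adjusted p = 0.0306). The first was lost without SPM replicate 2 (adjusted p = 0.110), DCM replicate 1 or DCM replicate 2, and the second without SPM replicate 1, SPM replicate 2 (adjusted p = 0.159), CK replicate 1 or CK replicate 2. Over the alternatives the adjusted p lay between 0.00929 and 0.110 for the first and between 0.0155 and 0.159 for the second. DESeq2 gave no adjusted p for the first because of the low counts.

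Atg4d, whose level in FPKM was far above that of Atg4a, went the other way. It had 58.8, 56.5 and 57.5 normalised CPM in CK, 56.7, 53.9 and 53.9 in DCM, and 41.9, 41.7 and 46.8 in SPM. All SPM libraries were below the other 6. Atg4d fell by 0.34 on the log2 scale in SPM compared to DCM (SE 0.07, adjusted p = 0.0170) and by 0.41 in SPM compared to CK (SE 0.07, adjusted p = 0.00379), the latter under all 14 alternatives with adjusted p up to 0.0333. The former was lost without SPM replicate 2 (adjusted p = 0.110), DCM replicate 1 or DCM replicate 2. Atg4b, the member with the broadest activity on ATG8 proteins, fell by 0.21 against CK (SE 0.06, adjusted p = 0.0391), a call kept under 4 of the 14 alternatives and lost without any 1 library other than CK replicate 2 (adjusted p = 0.184 without SPM replicate 2), and Atg4c did not pass in any comparison.

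Tfeb and the lysosomal membrane genes did not move together. Tfeb encodes the transcription factor that drives lysosomal and autophagy genes when mTORC1 is inactive. Tfeb had 40.0, 33.8 and 35.2 normalised CPM in CK, 35.6, 43.2 and 40.8 in DCM, and 28.8, 32.6 and 33.9 in SPM. CK overlapped with both other groups, while the SPM libraries were below those of DCM. The log2 fold change was 0.13 ± 0.10 in DCM compared to CK (adjusted p = 0.431) and -0.33 ± 0.09 in SPM compared to DCM (adjusted p = 0.0393). The fall was lost without SPM replicate 1, SPM replicate 2 (adjusted p = 0.129), DCM replicate 2 or DCM replicate 3, with adjusted p between 0.0151 and 0.635 over the alternatives.

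Lamp2, needed for fusion of autophagosomes with lysosomes and mutated in Danon cardiomyopathy, had 161, 187 and 174 normalised CPM in CK, 182, 184 and 214 in DCM, and 232, 233 and 234 in SPM. The SPM libraries were above all others and within 2 CPM of each other. Lamp2 rose by 0.27 ± 0.08 in SPM compared to DCM (adjusted p = 0.0386) and by 0.41 ± 0.07 in SPM compared to CK (adjusted p = 0.00357). The rise over CK was kept without SPM replicate 2 (adjusted p = 0.0226) and lost with the correction for GC content (0.08, adjusted p = 0.385). The rise over DCM was lost without any 1 of the 3 SPM libraries (adjusted p = 0.153 without replicate 2), DCM replicate 1 or DCM replicate 2, with a highest adjusted p of 0.511 over the alternatives. Lamp1 was at 0.21 ± 0.08 in DCM compared to CK, with DCM above CK in every library but an adjusted p of 0.0966, and at -0.15 ± 0.08 in SPM compared to DCM (adjusted p = 0.195).

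The direction of the differences from DCM to SPM ran with the base composition of the transcripts. The 5 genes that rose had a median GC content of 40.1% in their longest transcript and the 10 that fell one of 55.3%, with Bnip3 (41.6%) as the exception. Across the 37 genes the Spearman correlation of the log2 fold change with GC content was -0.77, and across all 14484 genes with a value it was -0.50; genes share libraries, so these values are descriptions. The values were -0.70 in SPM compared to CK for the genes of the list and -0.37 for all genes, and in DCM compared to CK 0.19 and 0.06. When the trend of each library on GC content was taken out of the fit, the correlation over the 37 was -0.33 in SPM compared to DCM and 3 of the 37 passed the test instead of 15, as 2.93% of all genes passed instead of 16.6%. These were Bnip3 at -0.68 ± 0.13 (adjusted p = 0.0365), Sqstm1 at -0.37 ± 0.07 (adjusted p = 0.0325) and Atg16l1 at -0.32 ± 0.07 (adjusted p = 0.0459), all lower in SPM. Of the 5 genes that had risen, Lamp2 and Bnip3l turned to values of -0.09 and -0.03, Atg3 and Fundc1 to 0.01 and 0.15, and Atg4a stayed at 2.82 with an adjusted p of 0.0583. In SPM compared to CK 6 of the 37 passed with the correction (21.4% of all genes), namely Atg4a, Atg4d, Atg9a, Atg16l1 and Gabarapl1 of the 13 called before, and Atg7. The other 8 calls against CK were lost, those of Ulk1, Atg3, Map1lc3a, Lamp2, Bnip3, Bnip3l, Fundc1 and Atg4b. In DCM compared to CK all 5 calls were kept, Bnip3 at 0.90 ± 0.10, and Lamp1 passed as well (13.3% of all genes). The correction cannot tell a technical trend from a real difference that runs with GC content. The plot against GC content shows both fits.

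**Figure D4:**
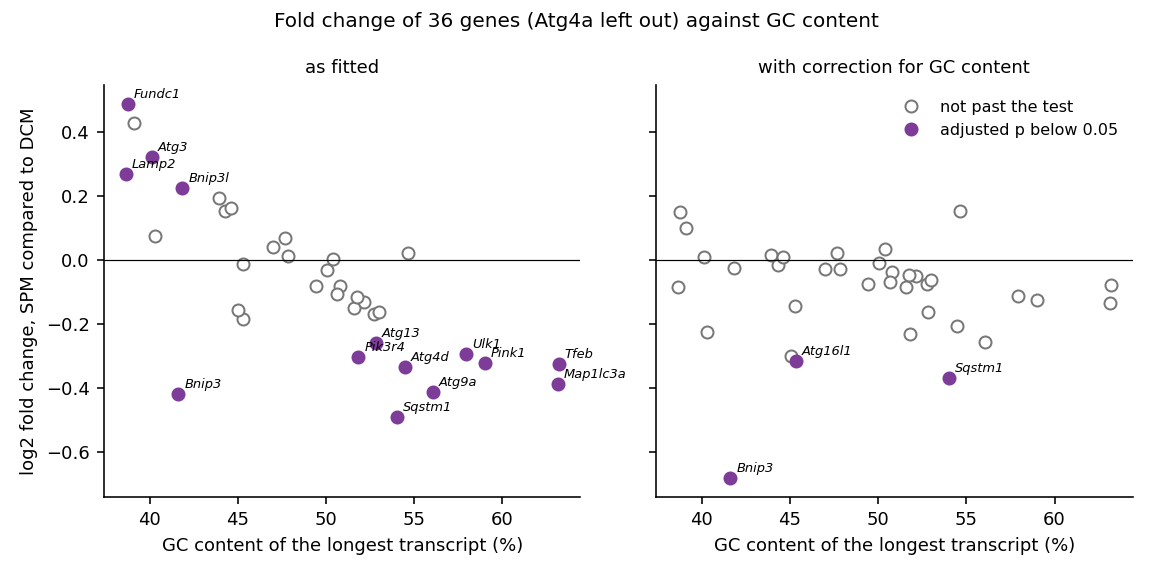
Log2 fold change in SPM compared to DCM (y axis) against the GC content of the longest transcript (x axis, percent) for 36 genes without Atg4a, as fitted (left) and with the correction for GC content (right); filled points have an adjusted p below 0.05. On the left the points descend from Fundc1 at 0.49 to Map1lc3a at -0.39, with Bnip3 apart at a GC content of 41.6%, and on the right Bnip3, Sqstm1 and Atg16l1 remain below 0.

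A further 112 genes of the pathway were measured, of which 109 were tested. In DCM compared to CK 12 of the 109 rose and 0 fell (5.28% and 5.11% of all genes), and DESeq2 called 18 higher and 0 lower. From DCM to SPM 8 rose and 14 fell (8.87% and 7.76% of all genes), and in SPM compared to CK 16 rose and 14 fell (13.0% and 14.3% of all genes). Without SPM replicate 2, 0 passed in SPM compared to DCM (0.486% of all genes) and 12 in SPM compared to CK, 9 higher and 3 lower (10.4% of all genes). Calls that passed whichever library was left out numbered 5 in DCM compared to CK (Calcoco1, Cd63, Ddit4, Foxo3 and Scarb2), 0 in SPM compared to DCM, and 11 in SPM compared to CK (Cd63, Ddit4, Depdc5, Fkbp8, Foxo3, Fundc2, Mitf, Prkag2, Retreg1, Scarb2 and Tecpr1). The share of all genes that passed in every such fit was not computed. The fits with the fewest calls had 5.59%, 0.486% and 10.4% of all genes in the same order. The other calls named in the following are lost without at least 1 library, which is not repeated for each. With the correction for GC content, 5 passed in SPM compared to DCM (2.93% of all genes). Of these Retreg1 was higher and Ctsl, Mcoln1, Lamtor1 and Atp6v1h were lower, and 4 were among the 22 called before. All 12 calls of DCM compared to CK were kept with it, and 17 of the 30 calls of SPM compared to CK. In these 2 comparisons 13.3% and 21.4% of all genes were called with the correction, against 10.4% and 27.4% without it. Of the 11 that passed whichever library was left out, 9 were kept, while Fundc2 turned from 0.41 to -0.03 (adjusted p = 0.870) and Fkbp8 went to -0.09 (adjusted p = 0.241). Among the other genes named here, Tmem41b at 0.09 (adjusted p = 0.506), Stx17 at 0.14 (adjusted p = 0.0992), Vps18 at -0.10 (adjusted p = 0.324) and Tsc2 at -0.17 (adjusted p = 0.0743) also lost their calls against CK.

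Of 11 further core autophagy genes tested, Atg101, a partner of ATG13 in the ULK complex, rose in DCM compared to CK from 25.5 ± 2.81 to 35.2 ± 4.07 normalised CPM (SD, n = 3), which is 0.47 ± 0.11 on the log2 scale (adjusted p = 0.0151). From DCM to SPM Tecpr1, a tether between autophagosome and lysosome, fell by 0.52 on the log2 scale (adjusted p = 0.0127) and Tmem41b, a scramblase of the endoplasmic reticulum, rose by 0.40 (adjusted p = 0.0286), and in SPM compared to CK the values were -0.47 (adjusted p = 0.0116) and 0.31 (adjusted p = 0.0383). Of 16 other receptors and mitophagy genes, 3 rose in DCM compared to CK (5.28% of all genes), among them Calcoco1 (0.37 ± 0.07, adjusted p = 0.00432) and Retreg1 (0.35 ± 0.09, adjusted p = 0.0294). Retreg1 (FAM134B), a receptor for autophagy of the endoplasmic reticulum, had 283 ± 30.6 normalised CPM in CK, 362 ± 30.5 in DCM and 549 ± 78.9 in SPM. It was a DEG in SPM compared to DCM (0.60 ± 0.11, adjusted p = 0.0116) and in SPM compared to CK (0.95 ± 0.11, adjusted p = 0.00132). The adjusted p of Retreg1 without SPM replicate 2 was 0.0520 and 0.00733, respectively. The ubiquitin ligase gene Mul1 fell by 0.34 in SPM compared to DCM (adjusted p = 0.0157), and Fkbp8, whose product binds ATG8 proteins at mitochondria, fell by 0.32 in SPM compared to CK (adjusted p = 0.00506). Of 14 genes for fusion with the lysosome, Bag3, a co-chaperone of muscle in chaperone-assisted autophagy, rose in DCM by 0.31 ± 0.07 (adjusted p = 0.0169). The SNARE gene Stx17 rose by 0.31 and Vps18 of the HOPS complex fell by 0.27 in SPM compared to CK (adjusted p = 0.00817 and 0.0281), and 0 of the 14 passed in SPM compared to DCM (16.6% of all genes).

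Of these 109 further genes 2 were DEGs in DCM compared to CK, 1 in SPM compared to DCM and 6 in SPM compared to CK. The shares of all genes were 4.34%, 3.59% and 9.21%. Of the 6 that were DEGs in any comparison, 5 belong to upstream control. Its lists held 28 tested genes of mTORC1 and AMPK control and 9 of TFEB-type factors and FoxO. Ddit4 (REDD1), an inhibitor of mTORC1 induced by stress and glucocorticoids, had 127 ± 35.4 normalised CPM in CK, 244 ± 55.9 in DCM and 226 ± 26.8 in SPM, which gave log2 fold changes over CK of 0.94 ± 0.19 in DCM (adjusted p = 0.00710) and 0.82 ± 0.18 in SPM (adjusted p = 0.0124). Foxo3, a transcription factor held back by insulin signalling, had 150.0 ± 17.1, 225 ± 30.1 and 234 ± 25.9 normalised CPM in the same order, with log2 fold changes over CK of 0.59 ± 0.11 (adjusted p = 0.00432) and 0.63 ± 0.10 (adjusted p = 0.00341). Both kept their rise over CK in SPM without SPM replicate 2 (adjusted p = 0.0379 for Ddit4 and 0.0159 for Foxo3), and neither passed in SPM compared to DCM. Prkag2, the AMPK subunit mutated in a glycogen storage cardiomyopathy, had 32.2 ± 0.428, 40.0 ± 1.54 and 48.7 ± 3.33 normalised CPM. It rose in DCM compared to CK (0.31 ± 0.07, adjusted p = 0.0196) and was a DEG in SPM compared to CK (0.59 ± 0.07, adjusted p = 0.00124). Sesn1, which holds mTORC1 inactive without leucine, and Prkag1 were DEGs in SPM compared to CK at 0.59 ± 0.14 (adjusted p = 0.0143) and 0.94 ± 0.28 (adjusted p = 0.0396), and without SPM replicate 2 Sesn1 was kept (adjusted p = 0.0458) and Prkag1 was not (adjusted p = 0.0976). From DCM to SPM the AMPK gene Prkaa2 rose by 0.41 (adjusted p = 0.0149) and Stk11 (LKB1), which activates AMPK, fell by 0.34 (adjusted p = 0.0177). Tsc2, an inhibitor of mTORC1, fell by 0.29 in SPM compared to CK (adjusted p = 0.00917). Mitf, a relative of Tfeb, rose by 0.32 in SPM compared to DCM (adjusted p = 0.0267) and by 0.49 in SPM compared to CK (adjusted p = 0.00480).

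Of 29 tested lysosomal genes of the kind that TFEB regulates, 4 rose and 0 fell in DCM compared to CK (5.28% and 5.11% of all genes), among them Cd63 (0.38 ± 0.07, adjusted p = 0.00370) and Scarb2 (0.41 ± 0.08, adjusted p = 0.00653), both lysosomal membrane proteins. From DCM to SPM 0 rose and 4 fell (8.87% and 7.76% of all genes), among them Ctsf (cathepsin F, -0.41 ± 0.07, adjusted p = 0.0119) and Mcoln1, a calcium channel of the lysosome (-0.43 ± 0.08, adjusted p = 0.0144, and 0.0829 without SPM replicate 2). In SPM compared to CK 2 rose and 7 fell (13.0% and 14.3% of all genes), and the 2 were again Scarb2 (0.39 ± 0.06, adjusted p = 0.00297) and Cd63 (0.47 ± 0.08, adjusted p = 0.00409). The median log2 fold change of the 29 was -0.03, -0.10 and -0.11 in the 3 comparisons. Of the genes of eIF5A hypusination, through which polyamines act on translation of autophagy factors, 2 were tested and Dhps, an enzyme of the modification, fell by 0.33 on the log2 scale in SPM compared to DCM (adjusted p = 0.0414).

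Levels of several cell type markers also differed between groups. In bulk RNA a change in the number of cells of a type cannot be told apart from a change in RNA per cell. Of 8 fibroblast markers 6 fell in DCM compared to CK, with a summed level of 2178 to 2234 CPM in CK, of 1355 to 1501 CPM in DCM and of 1602 to 1687 CPM in SPM. Of 12 macrophage markers 7 fell and 1 rose in DCM compared to CK and 6 rose in SPM compared to DCM, with summed levels of 861.5 to 1151, 678 to 825 and 807 to 1357 CPM. Neutrophil markers summed to 5.85 to 27.3, 12.6 to 28.4 and 31.0 to 62.3 CPM, and 6 of the 7 tested rose in SPM compared to DCM. Erythroid markers, the globin genes included, summed to 1590 to 3801, 1286 to 3291 and 738 to 1265 CPM, and 4 of 5 fell in SPM compared to DCM. Of 7 endothelial markers 1 fell in DCM compared to CK and 2 fell in SPM compared to DCM, at sums of 1809 to 2156, 1619 to 1796 and 1450.0 to 1596 CPM. Cardiomyocyte markers summed to 52250 to 56980, 48210 to 54370 and 41170 to 46110 CPM, and of the 8 none passed in DCM compared to CK and 1 fell in SPM compared to DCM. Over all genes 5.28% were called higher and 5.11% lower in DCM compared to CK, and 8.87% and 7.76% in SPM compared to DCM. Marker calls are not given without SPM replicate 2, where 0.486% of all genes were called in SPM compared to DCM. The part of the marker differences in the values of the autophagy genes was not tested.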

How the data were processed

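RNA-seq of 9 heart libraries, 3 each of CK, DCM and SPM, was analysed, with groups taken from the titles. The authors deposited counts, as whole numbers per gene and library, and FPKM values for each library. Reads had been filtered with fastp 0.18.0. The submitters' processing notes name Bowtie 0.12.2 and the builds mm8 and mm9 with no role. For the counting tool and annotation, a name is not given in the sources used here. Each deposited FPKM equals the count over the library total and over a fixed length of the gene, with a largest relative deviation of 8.6e-13. Of the identifiers, 22820 were named by GENCODE M21 and 31 were not. Library totals lay between 29901300 and 39718680. Intervals and the limit that 3 counts set for a count of 0 cover counting error only.

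Groups were compared in pairs on the 6 libraries concerned in edgeR 4.0.16 (R 4.3.3), by its quasi-likelihood test on all genes, after filterByExpr and TMM normalisation, and with Benjamini-Hochberg adjustment over all genes tested. Changed means an adjusted p below 0.05, and DEG a fold change of at least 1.5 as well, as in the limits of the study. The study applied its limits with DESeq2, and its DEG lists are not those given here. It lists Bnip3 as changed in DCM and reversed by SPM. Here the fall of Bnip3 from DCM to SPM was under 1.5-fold, both in the main fit and with DESeq2. Its mean deposited FPKM was 62.1 in DCM and 46.2 in SPM. The reason for this difference from the study was not tested. The alternatives were a fold limit of 1.3, none or 1.5, DESeq2 1.42.0, RLE normalisation, a block for the replicate number, limma 3.58.1 on log2 of FPKM plus 0.1, one fit over all 9 libraries, a minimum of 1 CPM in 3 libraries in place of filterByExpr, no filter, a correction for GC content (an offset from a lowess trend, span 0.3, of log2 CPM along the GC share of each longest transcript) and each library left out in turn. The steps were tested on simulated data. The genes and lists were chosen with earlier results of these data known. Every gene of the list is named. Values in every library are given for DEGs, for up to 8 genes of smallest adjusted p per comparison among those below 0.05, for the ATG8 family and for Tfeb. Of the other pathway lists, DEGs and up to 2 genes of smallest adjusted p per list and comparison are named, beside those that a change of setting singles out. Promoters are the 250 bases before RefSeq start sites. Python 3.11.15, pandas 2.3.3, scipy 1.17.1 and matplotlib 3.10.9 were used for summaries and plots.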

Additional observations from a re-analysis of the deposited data

How the results depend on the processing

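Leaving out a library reduces the samples of a fit, and the cause of the other shifts was not tested. With a limit of 1.5-fold, 1 gene of the list was left in each comparison in place of 5 (DCM compared to CK), 15 (SPM compared to DCM) and 13 (SPM compared to CK), and with a limit of 1.3-fold 1, 6 and 6 were DEGs. The count of changed genes was 2 in DCM compared to CK with limma on FPKM, 3 in SPM compared to DCM and 6 in SPM compared to CK with the correction for GC content, and within 1.5 times the main count under DESeq2, RLE normalisation, no filter, the 1 CPM filter and all 9 libraries in one fit. With each library left out in turn the counts ranged from 2 to 5, from 0 to 12 and from 6 to 10, and the number of DEGs from 1 to 1, from 0 to 1 and from 0 to 1. The single DEG of SPM compared to DCM, Atg4a, was lost with DESeq2 and with the 1 CPM filter (0 DEGs each), and under the correction for GC content the DEG was Bnip3. Atg4a was lost as a DEG of SPM compared to CK with the 1 CPM filter and the replicate block (0 each). With the correction the log2 fold changes of Lamp2 (-0.0852) and Bnip3l (-0.026) in SPM compared to DCM, and of Bnip3l (-0.0167) and Fundc1 (-0.0127) in SPM compared to CK, turned from positive to negative. Replicate numbers did not pair the libraries (correlations of residuals from -0.0746 to 0.205 for the same number and from -0.284 to 0.217 for others), and the replicate block gave 4, 16 and 9 changed genes. No group is larger than 3 libraries, and a difference under about 1.2-fold did not pass the test for most genes of the list.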
